A study of Mus musculus with 2 samples.

Results

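Avp nuclei are nuclei of the mouse paraventricular hypothalamus (PVH) rich in the transcript of Avp, which encodes the precursor of the hormone vasopressin. They were chosen by their own counts: a nucleus needed at least 500 detected genes, exactly 1 positive hashtag, at least 10 Avp UMIs (unique molecular identifiers, each counting 1 captured transcript), an Avp level of at least 1000 CPM (a gene's UMIs per 1000000 UMIs of all genes), and no more Oxt than Avp UMIs. Of 4904 nuclei with 1 tag, 222 met the rule, or 4.53% (95% Clopper-Pearson interval 3.96–5.15). They were set beside 151 Oxt-rich nuclei, which met the mirror rule for the oxytocin gene Oxt, and beside all 4682 other nuclei.

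The study took nuclei from the PVH of 17 mice aged 4 weeks and sequenced them together in 1 droplet library. All mice carried Sim1-Cre, which is active in cells that have used the Sim1 promoter, and a Sun1-GFP reporter that marks the nuclear envelope of such cells, so the controls carried both as well. On top of these, 4 mice were heterozygous for a floxed allele of the homeobox gene Otp, 6 were heterozygous for its Q153R allele, and 7 had no Otp alteration. Hashtag antibodies marked 3 pools of mice, whose deposited names are KD, Q153R and Ctrl; KD is not spelled out and was matched to the floxed genotype by elimination only. The Avp nuclei comprised 70 nuclei tagged KD, 77 tagged Q153R and 75 tagged Ctrl. Each pool mixes several mice and there is 1 library, so no difference has a replicate check, no p-value is given, and all intervals are 95% intervals that cover counting error only.

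Vasopressin is made by large (magnocellular) neurons of the PVH and the supraoptic nucleus, which send axons to the posterior pituitary and release the hormone into the blood, where it makes the kidney retain water and constricts vessels. Smaller (parvocellular) PVH neurons that make Crh, the hormone that drives the stress axis, can also make vasopressin, and a separate population lies in the suprachiasmatic nucleus, the circadian clock. The precursor is cut in dense-core granules into vasopressin, neurophysin and copeptin, so these neurons depend on the secretory pathway and on calcium-driven exocytosis.

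The Avp nuclei held 1269010 UMIs in all, with a median of 5442 per nucleus and a range of 691 to 15238. Their Avp counts ran from 10 over a median of 57 to 217 UMIs. The summed Avp level was 11101 CPM in Avp nuclei, against 242 in Oxt-rich nuclei and 140 in the 4531 nuclei that were neither. These values chose the nuclei and are a description. Just inside the limit lay 12 nuclei with 10 to 14 Avp UMIs and 8 with 15 to 19; just outside lay 72 nuclei with 5 to 9 Avp UMIs, and 5 nuclei with 10 or more failed another condition. Doubling both thresholds would keep 202 of the 222.

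Avp and Oxt, the 2 neurohypophysial hormone genes, were abundant in separate nuclei. They are neighbours on chromosome 2 with their 3′ ends facing each other, Oxt at chr2:130576173-130577054 on the plus strand and Avp at chr2:130580620-130582554 on the minus strand (GRCm38, GENCODE vM21), 3565 bases apart. Only 1 Avp nucleus also passed the Oxt threshold, with 48 Avp and 44 Oxt UMIs, and only 2 Oxt-rich nuclei also passed the Avp threshold. In 220 of the 222 Avp nuclei Avp counts were at least 5 times Oxt counts, and 95 held no Oxt UMI. The counts of both genes in each nucleus are plotted with the Avp level by pool.

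**Figure D1:**
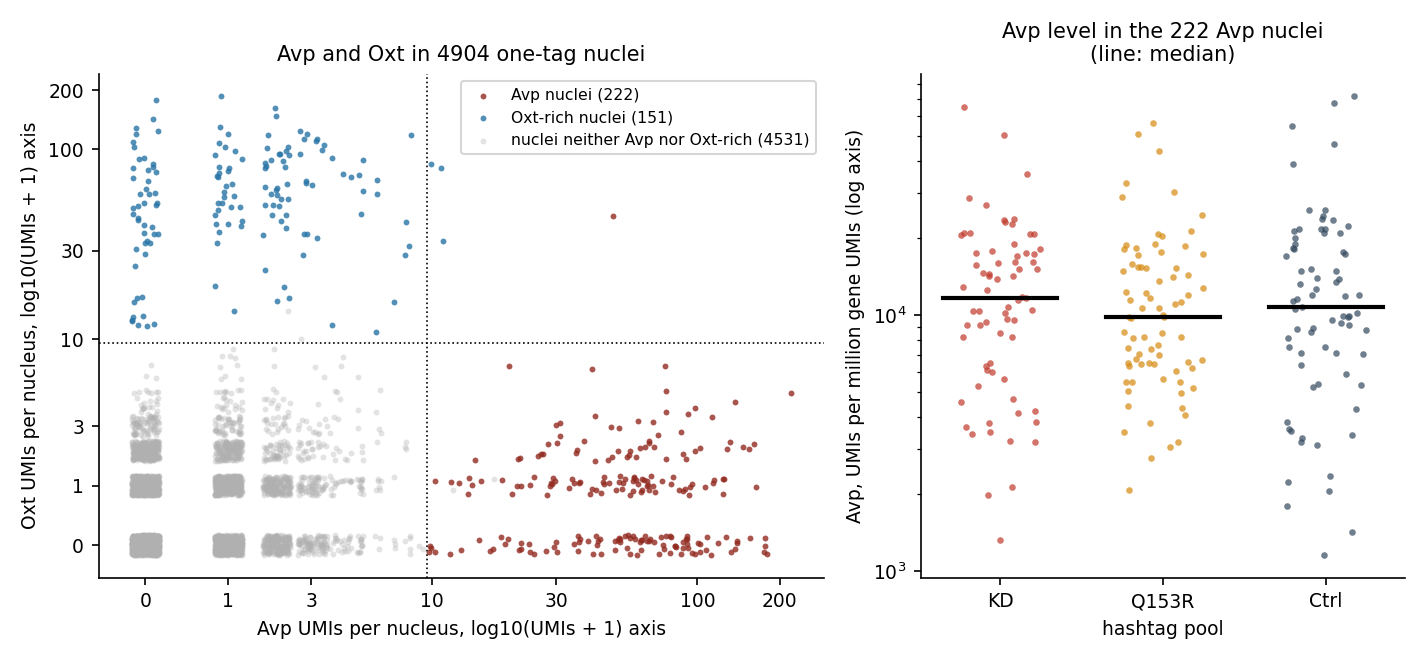
Left, Avp UMIs (x axis) and Oxt UMIs (y axis) of each of the 4904 one-tag nuclei, both on a log10(UMIs + 1) axis with a small random offset and dotted lines at the 10-UMI threshold. The 222 Avp nuclei and the 151 Oxt-rich nuclei lie along different axes, with 1 Avp nucleus near the middle. Right, Avp level of each Avp nucleus in CPM on a log axis, by pool, with the median as a line; the 3 pools overlap over nearly their whole range.

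The 250 bases before the annotated start of each gene are shown because the 2 genes lie side by side and yet were abundant in different nuclei. Both are printed 5′ to 3′ on the strand of the gene, from RefSeq on GRCm38.p6, at chr2:130582589-130582838 (minus strand) for Avp and chr2:130575919-130576168 (plus strand) for Oxt. Capitals mark the matches to 6 motifs searched on both strands: the E-box CACGTG, the cAMP response element TGACGTCA, the octamer ATGCAAAT bound by POU factors, the AP-1 motif TGANTCA, the palindromic EBF motif and the TATA box TATAAA.
Avp: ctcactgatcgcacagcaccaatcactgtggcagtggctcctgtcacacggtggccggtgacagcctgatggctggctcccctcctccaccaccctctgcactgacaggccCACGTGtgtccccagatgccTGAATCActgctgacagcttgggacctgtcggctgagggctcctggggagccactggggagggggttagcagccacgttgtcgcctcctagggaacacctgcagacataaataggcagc
Oxt: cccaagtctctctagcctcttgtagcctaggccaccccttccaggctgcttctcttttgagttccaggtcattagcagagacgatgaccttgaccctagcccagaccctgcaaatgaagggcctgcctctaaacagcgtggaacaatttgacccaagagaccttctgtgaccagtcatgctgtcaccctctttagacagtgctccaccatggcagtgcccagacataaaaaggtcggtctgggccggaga
The Avp window held 1 E-box, 139 bases before the start, and 1 AP-1 match, 119 bases before it. The Oxt window held none of the 6 motifs. Among 32851 promoters of the same length, 6.02% held the E-box and 6.75% the AP-1 motif, against 1.55% for the cAMP response element, 1.60% for the octamer, 0.779% for the EBF motif and 12.4% for the TATA box. The matches are a description of these letters, not of bound sites.

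Low counts of both hormones occurred in nuclei of every kind. At an equal depth of 2000 UMIs per nucleus, 24.1% of the nuclei that were neither held an Avp UMI, as did 24.3% of nuclei in an astrocyte-like cluster and 20.2% in a GABAergic-like cluster, both of which should lack it; 361 of 4531, 49 of 93 and 15 of 526 nuclei in these sets were too shallow to enter, and without thinning the shares were 48.5%, 41.9% and 43.0% at median depths of 5179, 1923 and 5519 UMIs. The matching Oxt share was 29.6% in Avp nuclei, 18 of which were too shallow, against 24.0% in the nuclei that were neither. Summed Oxt was 209 CPM in Avp nuclei (184–236) and 137 CPM in the nuclei that were neither (132–141), and in the astrocyte-like cluster 219 CPM (170–277). In the GABAergic-like cluster Oxt was lower than in Avp nuclei, at 134 CPM (121–148). Both clusters were taken here without their Avp and Oxt-rich nuclei. Of the 265 Oxt UMIs of Avp nuclei, 44 lay in 1 nucleus. Whether the Oxt of Avp nuclei is expression was not tested, and it is not read as expression here.

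Summed over the 222 nuclei, the levels fit neurons of the Sim1 lineage. The 5 pan-neuronal markers Snap25, Syt1, Rbfox3, Meg3 and Stmn2 summed to 6600 CPM in Avp nuclei and 8063 CPM in all other nuclei, and Sim1 stood at 803 and 431 CPM. Of the 5 markers, Syt1 and Rbfox3 were over 2-fold lower in Avp nuclei, and the median log2 ratio was -0.52. Markers of other cells were sparse: the 6 GABAergic markers summed to 19.7 CPM in Avp nuclei with Dlx1 and Dlx5 at 0, against 112 CPM in all others, the 8 astrocyte markers to 35.5 against 134 CPM with Gfap at 0, and the 6 oligodendrocyte markers to 56.7 against 139 CPM with Opalin at 0. Of 16 genes linked to vasopressin neurons of the suprachiasmatic nucleus, Vip, Nms, Lhx1, Six6 and Six3 had 0 UMIs in Avp nuclei; a count of 0 among 222 allows up to 1.35% of nuclei with a UMI, which at this depth is no limit on nuclei that express the gene. The other genes of that list include broadly expressed ones, and the list summed to 1347 CPM in Avp nuclei and 1090 CPM in all others.

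Most Avp nuclei formed 1 transcriptional group, and a small set did not. Clustering of all 4904 nuclei without Avp and Oxt gave 24 clusters, and 196 of the 222 Avp nuclei (88.3%) fell into 1 cluster of 203 nuclei. That cluster, called Avp-led here, has Avp, Gm47710, Pla2r1, Plekhg1, Ebf3, Mbnl3 and Galntl6 among its leading genes, and holds 60 Avp nuclei tagged KD, 70 tagged Q153R and 66 tagged Ctrl. Its other 7 nuclei had 0 to 8 Avp UMIs and a summed Avp level of 931 CPM (608–1364), above the 140 CPM of nuclei that were neither. A further 14 Avp nuclei fell into a cluster led by Sv2c and Crh, and the remaining 12 were scattered over other clusters. Among the 12 were 2 nuclei of the GABAergic-like, 1 of the astrocyte-like and 1 of an oligodendrocyte precursor-like cluster.

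The 14 Avp nuclei in the Crh cluster carried less Avp than those of the Avp-led cluster and more Crh than either the Avp-led cluster or their cluster mates. Their Avp counts had a median of 14 UMIs, against 60.5 in the Avp-led cluster, and they summed to 3540 CPM of Avp (3128–3991), against 264 CPM in the other 719 nuclei of the Crh cluster. The Avp gap to their cluster mates follows from the rule that chose the nuclei and is a description only. Crh stood at 464 CPM in them (323–645, 35 UMIs), against 1.82 CPM in the 196 Avp nuclei of the Avp-led cluster (0.220–6.57, 2 UMIs) and 241 CPM in the other Crh-cluster nuclei. Sv2c, a synaptic vesicle protein gene, stood at 1379 CPM in them, against 3.64 CPM in the Avp-led cluster and 1349 CPM in their cluster mates, and Nr3c1, the glucocorticoid receptor gene that mediates stress feedback, at 252 against 16.4 and 244 CPM. Galntl6 was at 2307 CPM in these 14 nuclei, between the 13418 CPM of the Avp-led cluster and the 743 CPM of their cluster mates, while Caprin2, at 39.8 CPM, was nearer to the cluster mates at 22.9 CPM than to the Avp-led cluster at 473 CPM. The 14 nuclei comprised 6 tagged KD, 1 tagged Q153R and 7 tagged Ctrl. Whether single nuclei of this set are pairs of nuclei sharing a droplet was not tested; their median depth was 4784 UMIs, against 5454 UMIs in the Avp-led cluster.

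**Figure D2:**
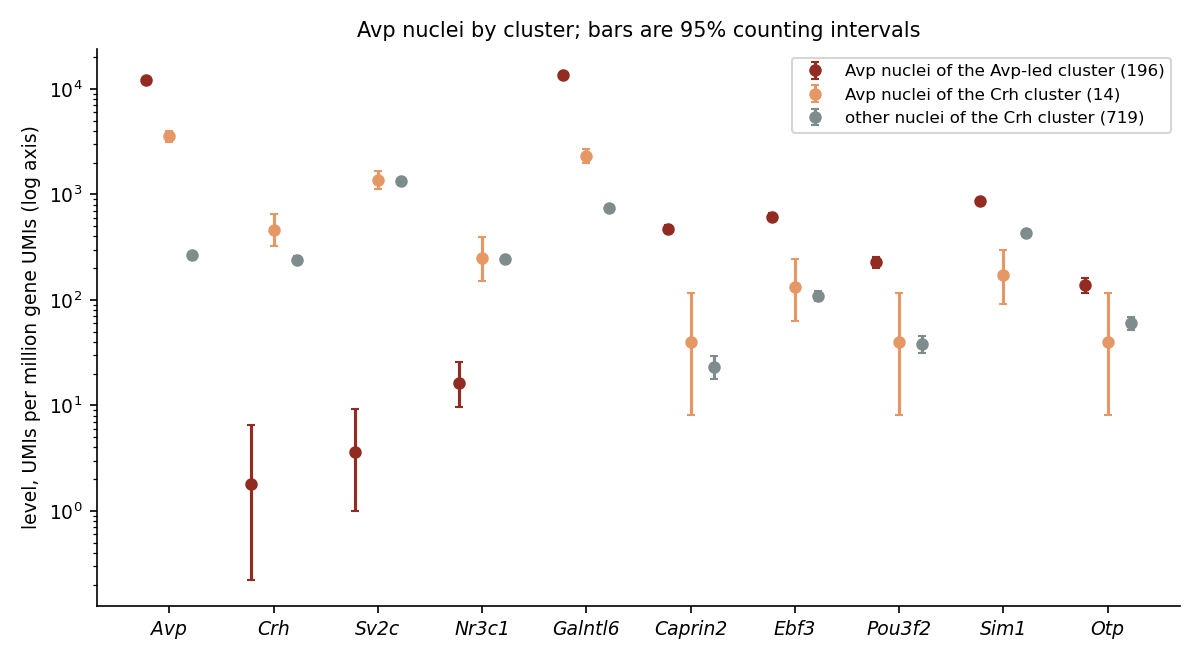
Levels of 10 genes in CPM (log axis) in the 196 Avp nuclei of the Avp-led cluster, the 14 Avp nuclei of the Crh cluster and the other 719 nuclei of the Crh cluster; bars are 95% counting intervals. Sv2c and Nr3c1 in the 14 nuclei lie near the other Crh-cluster nuclei and above the Avp-led cluster, and Crh, at 464, lies above both, at 1.82 in the Avp-led cluster and 241 in the other Crh-cluster nuclei.

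Against all other nuclei, the Avp nuclei were set apart by a short list of higher genes and a longer list of lower ones. A gene was compared where at least 20 UMIs were expected in the smaller group, which 7868 genes met. Of these, 174 were over 2-fold higher in Avp nuclei (2.21%) and 707 over 2-fold lower (8.99%), together 11.2%; the median log2 ratio was -0.02. Leaving out Avp itself, 173 of the 173 higher genes were also above 1 within every pool, and 106 were past 2-fold in every pool; leaving out Oxt, 699 of the 706 lower genes were below 1 in every pool. Both lists were called on the sum of the same pools, so this agreement is partly built in and is no separate check.

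Plekhg1, a guanine nucleotide exchange factor gene, stood at 286 CPM in Avp nuclei tagged KD, 253 in those tagged Q153R and 217 in those tagged Ctrl. Its summed level was 251 CPM in Avp nuclei and 23.2 CPM in all others, a ratio of 10.9 (9.45–12.5), and it was high in all 3 pools. Galntl6, of a family of enzymes that start O-linked glycosylation, had 11108, 13232 and 12518 CPM in Avp nuclei tagged KD, Q153R and Ctrl, and 12267 CPM in Avp nuclei against 1664 CPM in all others (ratio 7.37, 7.24–7.51). Caprin2, an RNA-binding protein that binds vasopressin mRNA in rats, had 431, 447 and 390 CPM in the same 3 pools, 422 CPM in Avp nuclei against 61.8 CPM in all others (ratio 6.83, 6.18–7.53). Caprin2 was nearly as high in Oxt-rich nuclei, at 400 CPM (ratio of Avp to Oxt-rich nuclei 1.05, 0.928–1.20).

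Further genes among the 15 highest were Zfp804a, a zinc finger gene (ratio 6.80), Susd1 (6.24), Maml3, a coactivator of Notch signalling (6.01), Ptbp3, a splicing regulator (5.78), Plpp4 (5.70), Cdh9, a cadherin (5.55), Prrg1 (5.53), and Stxbp6, which binds the exocytosis machinery (5.52). The lincRNAs Gm26905 and Gm44593 stood at 7.64 and 5.95. All 15 were past 2-fold in each of the pools whose sum chose them. Without the GABAergic-like and glial clusters in the other group, their ratios ran from 5.06 for Cdh9 to 13.7 for Plekhg1. Among the 10 lowest ratios were those of the lincRNA Gm28928, with 3 UMIs in Avp nuclei at 2.36 CPM against 370 CPM in all others, and of the serotonin receptor gene Htr7, with 1 UMI at 0.788 against 59.2 CPM. Onecut2, Lncenc1, Htr1f, L3mbtl4, St18, Gm29683 and Dpf3 were also among them, each with 1 to 3 UMIs in Avp nuclei. St18 was a leading gene of an oligodendrocyte-like cluster. Its ratio went from 0.025 to 0.177 without the GABAergic-like and glial clusters.

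**Figure D3:**
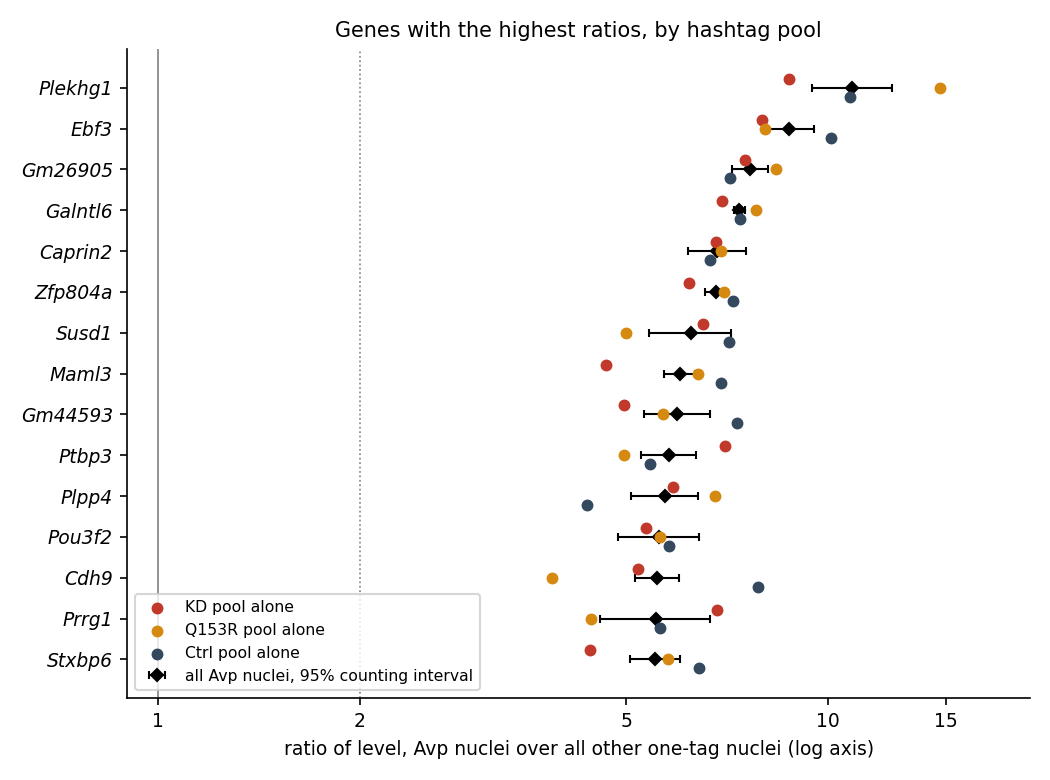
Ratio of level in Avp nuclei over all other one-tag nuclei (log axis) for the 15 genes with the highest ratios; black diamonds are all Avp nuclei with 95% counting intervals, coloured points are single pools. Every point lies right of the dotted line at 2, from 3.88 for Cdh9 in the Q153R pool to 14.7 for Plekhg1 in the same pool.

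Among transcription factors of the PVH, lower genes outnumbered higher ones. Of 63 listed factors 42 were compared, and 6 were over 2-fold higher and 19 over 2-fold lower, where 2.21% and 8.99% of all compared genes were; this background holds for each list below. The list had a median log2 ratio of -0.93. Ebf3 had 574, 581 and 531 CPM in Avp nuclei tagged KD, Q153R and Ctrl, and 561 CPM in Avp nuclei against 64.2 CPM in all others (ratio 8.74, 7.995–9.54). Its relatives went the other way: Ebf1 stood at 11.0 against 255 CPM (ratio 0.04) and Ebf2 at 13.4 against 47.2 CPM (ratio 0.28).

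Pou3f2, a POU factor that mouse vasopressin and oxytocin neurons need to develop, had 202, 202 and 213 CPM in Avp nuclei tagged KD, Q153R and Ctrl, and 206 CPM in Avp nuclei against 36.8 CPM in all others (ratio 5.58, 4.85–6.41). Foxp2 stood at 865 against 274 CPM, Tshz1 at 124 against 39.0 CPM, Bcl11a at 211 against 63.5 CPM and Nr2f1 at 48.1 against 23.7 CPM. Against Oxt-rich nuclei, however, Foxp2 was over 2-fold lower, and Tshz1 and Nr2f1 were not among the factors over 2-fold higher. Among the 19 lower factors were Zfhx3 at 80.4 against 759 CPM, Zfhx4 at 22.1 against 226 CPM, Sox5 at 41.8 against 343 CPM and Nfib at 3.94 against 95.2 CPM. Sox6, also among the 19, stood at a ratio of 1.34 without the GABAergic-like and glial clusters. Sim1 itself (ratio 1.86) and Otp (1.83, 1.55–2.14) were higher without reaching 2-fold.

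Few genes of other peptides had counts enough to compare. Of 34 listed neuropeptide genes 9 could be compared; none was over 2-fold higher and 5 were over 2-fold lower: Penk (7.88 against 47.2 CPM), Trh (7.09 against 58.7), Sst (23.6 against 166), Cartpt (8.67 against 21.5) and Adcyap1 (1.58 against 26.5). Pdyn, the dynorphin precursor that magnocellular vasopressin neurons are known to make, fell short of the count minimum; it had 17, 14 and 16 UMIs in Avp nuclei tagged KD, Q153R and Ctrl, and 37.04 CPM in Avp nuclei against 8.03 CPM in all others (ratio 4.61, 3.29–6.35). After thinning, 6.36% of Avp nuclei and 1.38% of all others held a Pdyn UMI.

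Of 27 listed genes of protein folding and the unfolded protein response 20 were compared, with 4 over 2-fold higher, 0 lower and a median log2 ratio of 0.28. The 4 were Creb3l2, a transcription factor anchored in the endoplasmic reticulum (134 against 27.7 CPM, ratio 4.84, 4.07–5.73), Ern1, which encodes the stress sensor IRE1 (234 against 71.6 CPM, ratio 3.27), Eif2ak3, which encodes the sensor PERK (99.3 against 36.04 CPM, ratio 2.75), and Dnajb9, a chaperone partner (44.9 against 18.1 CPM, ratio 2.49). The main chaperones did not reach the fold: Hspa5 was at 148 against 127 CPM, Hsp90b1 at 109 against 107 CPM and Xbp1 at 40.2 against 34.2 CPM. Of 24 listed genes of peptide processing and granules 23 were compared, with Cadps2, a priming factor of granule release, over 2-fold higher (707 against 321 CPM, ratio 2.20) and Chga, Chgb, Scg2, Syt1, Sv2b and Sv2c over 2-fold lower. Scg2, secretogranin II, stood at 90.6 against 247 CPM and Syt1, a calcium sensor of vesicle release, at 583 against 1758 CPM, while the processing enzyme genes Pcsk1 (ratio 1.16), Pcsk2 (0.877) and Cpe (0.854) were close to the other nuclei.

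Of 36 listed cAMP genes 32 were compared, 2 over 2-fold higher and 4 lower, against the 2.21% and 8.99% of all compared genes; the number lower is near that share. Adcy8, a calcium-stimulated adenylyl cyclase, had 527, 672 and 688 CPM in Avp nuclei tagged KD, Q153R and Ctrl, and 629 CPM in Avp nuclei against 123 CPM in all others (ratio 5.13, 4.74–5.55). Pde4b, which breaks cAMP down, had 6177 against 1168 CPM (ratio 5.29, 5.16–5.42), while its paralogue Pde4d was at 1965 against 2156 CPM. Of 40 listed osmotic and volume genes 21 were compared. Of these, 3 were over 2-fold higher, among them the cation channel gene Trpc5 (799 against 201 CPM, ratio 3.97) and the cGMP kinase gene Prkg2 (61.5 against 21.3 CPM, ratio 2.88), and 8 genes were over 2-fold lower, among them Trpc4 (5.52 against 83.0 CPM) and Prkg1 (120 against 1031 CPM). Trpv1 and Trpv4, channel genes tied to osmosensing in rodents, had 0 UMIs in Avp nuclei.

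Of 34 listed potassium and HCN channel genes 32 were compared, with 4 over 2-fold higher and 11 lower. The 4 were Kcnh1, an ether-a-go-go channel (877 against 225 CPM, ratio 3.90, 3.66–4.16), Kcnip4, a subunit of A-type channels (29051 against 7380 CPM, ratio 3.94), and Kcnmb4 and Kcnmb2, auxiliary subunits of large-conductance calcium-activated channels (ratios 4.88 and 2.38). The pore-forming gene of those channels, Kcnma1, was at 638 against 719 CPM, and Kcnn2, a small-conductance calcium-activated channel, at 28.4 against 231 CPM. Of 32 listed sodium and calcium channel genes 27 were compared, with none over 2-fold higher and 9 lower, against the 2.21% and 8.99% of all compared genes, including Ryr3 (21.3 against 293 CPM).

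Of 38 listed glutamate and GABA receptor genes 36 were compared. The 5 higher ones included Grm3 (719 against 137 CPM, ratio 5.25, 4.88–5.64), Grin3a (729 against 271 CPM, ratio 2.69), Grm7 (3450 against 1382 CPM, ratio 2.50) and Gabra4 (ratio 2.24). The 13 lower ones included the AMPA subunit genes Gria2 and Gria4 and the metabotropic receptor gene Grm5, which was at 211 against 1253 CPM. Among 24 compared receptors for peptides and amines only Adra1a, the alpha-1A adrenergic receptor, was over 2-fold higher (85.9 against 35.3 CPM, ratio 2.44, 1.98–2.97), and 9 were lower, with Prlr, the prolactin receptor, at 5.52 against 116 CPM. Of the receptors for the hormones themselves, Avpr1b and Oxtr had 0 UMIs and Avpr1a 3 UMIs in Avp nuclei. Of 11 compared genes induced by neuronal activity, none was higher and 6 were lower, such as Nr4a1 (18.9 against 41.4 CPM) and Npas4 (11.8 against 34.3 CPM).

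The comparison with Oxt-rich nuclei asks what sets the 2 hormone-rich groups apart. Of 7409 compared genes 216 were over 2-fold higher in Avp nuclei (2.92%) and 424 lower (5.72%), together 8.64%. The Oxt-rich nuclei were deeper, at a median of 6905 UMIs, and were themselves mixed: 91 lay in an Oxt-led cluster and 48 in a cluster led by Esr2. Against the Oxt-led cluster alone, 245 genes were higher and 246 lower.

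The factors Bcl11a, Bcl11b and Ebf3 had few or no UMIs in Oxt-rich nuclei. Of 32 compared PVH factors these 3 were over 2-fold higher and 12 were lower. Bcl11a, a zinc finger repressor, had 185, 217 and 231 CPM in Avp nuclei tagged KD, Q153R and Ctrl, and 268 UMIs in all Avp nuclei against 2 UMIs in Oxt-rich nuclei (ratio 119, 32.6–988). Its paralogue Bcl11b had 66 against 0 UMIs, at least 19.5-fold higher on a floor of 3 counts over the group, and Ebf3 712 against 13 UMIs (ratio 48.6, 28.3–91.8). Ebf3 fell to 1 UMI in the Oxt-led cluster alone. Bcl11a was present outside both groups, at 63.5 CPM in all nuclei other than Avp nuclei. In the other 719 nuclei of the Crh cluster Bcl11a stood at 216 CPM (199–233). The Avp nuclei of the Avp-led cluster had 221 CPM (194–251). Ebf3 was also among the leading genes of a cluster led by Aox3, which held 1 Avp nucleus among 218.

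Receptors and channels also differed. Tacr3, the neurokinin B receptor gene, had 22, 15 and 11 UMIs in Avp nuclei tagged KD, Q153R and Ctrl, 48 in all, against 0 UMIs in Oxt-rich nuclei, at least 14.2-fold higher on the same floor. Higher as well were Calcr, the calcitonin receptor (61.5 against 3.55 CPM, ratio 17.3, 6.50–65.2; 8.20 for the Avp-led cluster alone), Trpc5 (ratio 7.09, 5.89–8.60), the kainate receptor subunit Grik1 (829 against 134 CPM, ratio 6.19, 5.21–7.39), Rab3b, of a family of vesicle GTPases (40.2 against 6.21 CPM, ratio 6.47), Grin3a (3.80), Grm7 (3.34), Adcy8 (3.15) and the G protein gene Gnas (1531 against 549 CPM, ratio 2.79, 2.55–3.06). By the named-gene rule the 10 highest also included the lincRNA Gm47710 (128 against 0 UMIs), Rtn4rl1 (ratio 14.7), Cecr2 (13.9), Pla2r1 (13.8), Adamts5 (13.6) and the inward rectifier Kcnj12 (11.8).

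On the other side, Esr2, which encodes oestrogen receptor beta, had 0 UMIs in Avp nuclei and 93 in Oxt-rich nuclei, of which 78 lay outside the Oxt-led cluster. Prlr stood at 5.52 against 151 CPM (ratio 0.04), the kappa opioid receptor gene Oprk1 at 19.7 against 160 CPM (0.12, 0.0778–0.188), Nos1, neuronal nitric oxide synthase, at 7.88 against 122 CPM (0.06), and the NMDA subunit Grin2a at 44.1 against 594 CPM (0.07, 0.0556–0.0977). Galnt14, a relative of Galntl6, had 3 UMIs in Avp nuclei and 258 in Oxt-rich nuclei. Sox5 was lower than in all Oxt-rich nuclei (41.8 against 470 CPM) and not lower than in the Oxt-led cluster alone (ratio 1.43). Crh, Vgf and Agtr1a were over 2-fold higher in all 222 Avp nuclei, with ratios of 4.82, 2.02 and 3.82, and were lower, at 0.293, 0.652 and 0.205, when only the Avp-led cluster was used, which leaves out the 14 nuclei of the Crh cluster and the 12 scattered ones. Of the 38 Crh UMIs of Avp nuclei, 35 lay in the 14 nuclei; Agtr1a also turned, to 0.675, when both Avp thresholds were doubled.

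**Figure D4:**
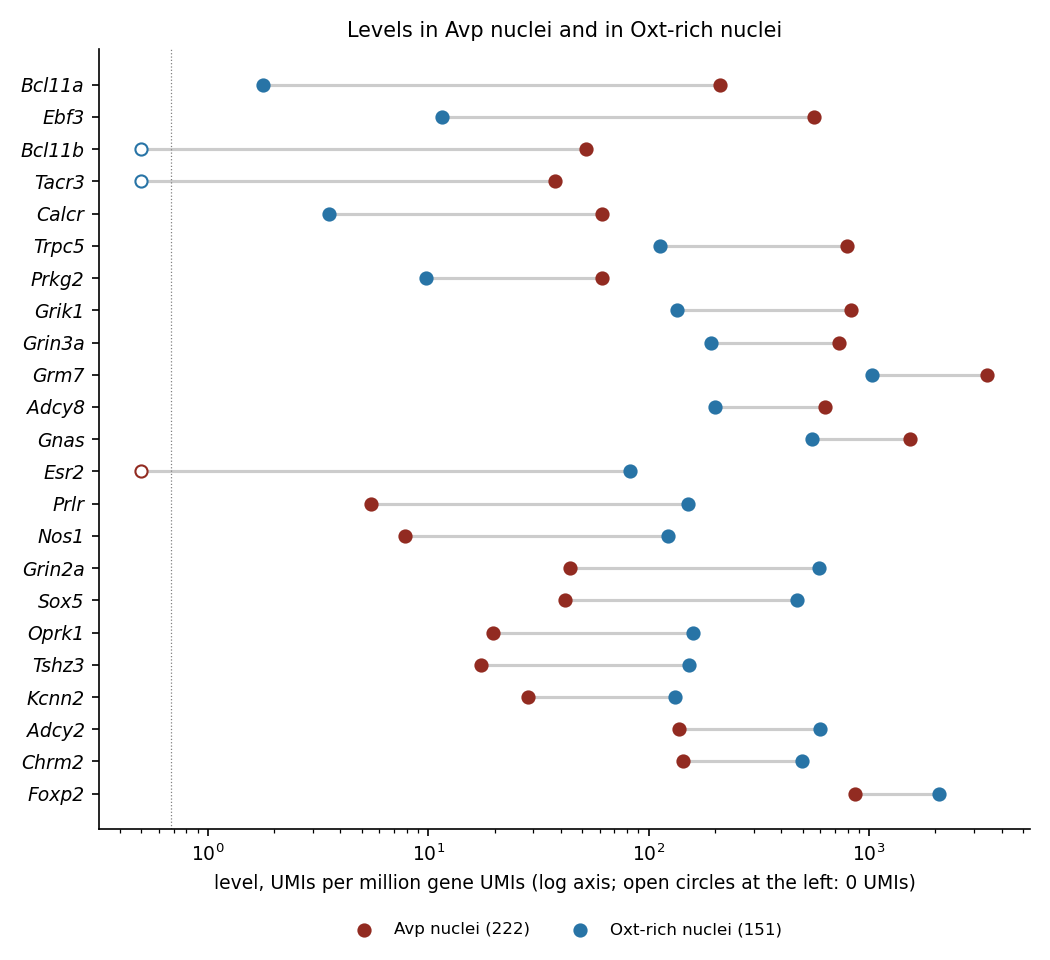
Levels of 23 genes in Avp nuclei and in Oxt-rich nuclei, in CPM on a log axis; open circles at the left stand for 0 UMIs. The upper 12 genes lie higher in Avp nuclei and the lower 11 higher in Oxt-rich nuclei, with Bcl11b and Tacr3 at 0 in Oxt-rich nuclei and Esr2 at 0 in Avp nuclei.

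Several genes high in Avp nuclei had like levels in Oxt-rich nuclei. Pou3f2 stood at 206 and 175 CPM in the 2 groups (ratio 1.18, 0.974–1.42), Creb3l2 at 134 and 93.2 CPM (1.44), Eif2ak3 at 99.3 and 104.7 CPM (0.948) and Adra1a at 85.9 and 98.5 CPM (0.872, 0.663–1.15). Pde4b, Kcnmb4 and Grm3 also stayed within 2-fold of all Oxt-rich nuclei. Pde4b stood at 4820 CPM in Oxt-rich nuclei of the Oxt-led cluster and at 2910 CPM in the other Oxt-rich nuclei. Of 20 compared secretory pathway genes 1 was over 2-fold higher than in Oxt-rich nuclei, Ern1 (ratio 2.18, 1.76–2.72), and 1 lower, Herpud1 (21.3 against 44.4 CPM), where 8.64% of all compared genes were past the fold either way.

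Within the 196 Avp nuclei of the Avp-led cluster, genes differed widely in how evenly they were spread over nuclei. Spread is given as the squared coefficient of variation left after counting noise, over 2111 genes with at least 100 UMIs. It was 0.141 for Galntl6, 0.265 for Pou3f2, 0.268 for Adcy8, 0.406 for Ebf3 and 0.906 for Caprin2; Avp stood at 0.455, but its lower range was removed by the choice of nuclei. The highest values were those of Epha6, an ephrin receptor (5.60, with UMIs in 26.5% of the 196 nuclei), Nnat, an imprinted gene (5.59), Gpc5, a glypican (5.55, with 18.4% of its UMIs in 1 nucleus), and Nkain3 (5.45). Gm47710 and Pla2r1, among the genes leading the cluster, also varied, at 3.27 and 2.68, and had UMIs in 29.6% and 28.6% of nuclei.

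Nuclei were also divided into tertiles by Avp level, which are ranges and not types, with 74 nuclei each and median Avp levels of 4852, 10702 and 20692 CPM. Depth ran the other way, at medians of 6812, 5568.5 and 4211.5 UMIs, and 13 of the 14 Crh-cluster nuclei were in the low tertile. In the Avp-led cluster lay 52 nuclei of the low and 72 of the high tertile. The low tertile held 20 nuclei tagged KD, 30 tagged Q153R and 24 tagged Ctrl, and the high tertile 26, 23 and 25. Xist stood at 2228 CPM in the high and 1398 CPM in the low tertile (ratio 1.59, 1.43–1.77). Whether the tertiles differ by sex was not tested. Between the high and the low tertile, 205 of 3033 compared genes were over 1.5-fold higher (6.76%) and 325 over 1.5-fold lower (10.7%). Of 13 compared secretory pathway genes 4 were higher and 0 lower. Dnajc3 stood at 111 against 54.4 CPM (ratio 2.04, 1.21–3.47). Pdia6, Manf and Eif2ak3 had ratios of 1.69 each, the value that equal UMI counts in both tertiles give. Caprin2 was at 562 against 352 CPM (ratio 1.59, 1.29–1.97) and 1.22 within the Avp-led cluster. The transcription factor gene Dach1 was at 50.8 CPM in the high tertile and 360 CPM in the low tertile, a ratio of 0.14 that stood at 0.14 within the Avp-led cluster as well (0.0721–0.248), while Gpc6 and Nrxn3, at 0.08 and 0.14 over all Avp nuclei, stood at 0.75 and 0.62 within that cluster.

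The shares of Avp nuclei in the 3 pools had overlapping counting intervals. They were 5.197% of one-tag nuclei in KD (70 of 1347, 4.07–6.52), 4.84% in Q153R (77 of 1591, 3.84–6.01) and 3.81% in Ctrl (75 of 1966, 3.01–4.76). Set against Ctrl, the odds ratio of KD was 1.38 (0.975–1.96) and that of Q153R 1.28 (0.914–1.80), and both intervals include 1. Dissection and the sort for GFP can set such shares; without the GABAergic-like and glial clusters the odds ratios were 1.22 and 1.08. Sex also differed between pools: at least 2 UMIs of Y-linked genes were seen in 0 of the 70 Avp nuclei tagged KD, 27 of 77 tagged Q153R and 6 of 75 tagged Ctrl. Among nuclei with at least 3 Xist UMIs and no Y-linked UMI the odds ratios of KD and Q153R were 1.26 (0.874–1.82) and 1.08 (0.703–1.64). Among nuclei with Y-linked UMIs, 0 of 45 were Avp nuclei in KD, 27 of 438 in Q153R and 6 of 290 in Ctrl, and the odds ratio of Q153R over Ctrl was 3.11 (1.24–9.32). The Avp level itself, which the rule used, was 11835 CPM in Avp nuclei tagged KD, 9845 CPM in those tagged Q153R and 11513 CPM in those tagged Ctrl.

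Otp, the gene altered in these mice and needed in mice for vasopressin neurons to form, had 61, 63 and 41 UMIs in Avp nuclei tagged KD, Q153R and Ctrl, or 143, 159 and 91.8 CPM. The ratio over Ctrl was 1.56 in KD (1.03–2.37) and 1.73 in Q153R (1.15–2.63), so neither altered pool had the lower Otp level. Counts are summed over the whole gene and do not show whether a floxed segment was present. In the other nuclei of each pool, without the GABAergic-like and glial clusters, the ratios were 1.51 and 2.11.

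Between KD and Ctrl, 275 of 3893 compared genes were over 1.5-fold higher in Avp nuclei (7.06%) and 312 over 1.5-fold lower (8.01%). Wdr41, a gene near Otp on chromosome 13 (chr13:94976344-95023314, plus strand, with Otp at chr13:94875602-94885130), was at 373 CPM in KD, 68.2 CPM in Q153R and 26.9 CPM in Ctrl, from 159, 27 and 12 UMIs. KD was far above both other pools, with a ratio of 13.9 over Ctrl (7.72–27.4) and 12.2 among nuclei with Xist (6.79–24.1). Outside the Avp set, without the GABAergic-like and glial clusters, the ratio was 5.19 (4.68–5.77). Arsb, a lysosomal sulfatase gene on the same chromosome, was at 131, 96.0 and 31.4 CPM in KD, Q153R and Ctrl (KD over Ctrl 4.19, 2.30–8.15). Among those same nuclei outside the Avp set its ratio was 1.06. Of 42 compared genes within 10 Mb of Otp 6 were higher (14.3%), namely Edil3, Xrcc4, Atg10, Arsb, Otp and Wdr41, against 6.99% of the other 3851 compared genes, and 3 were lower (Gtf2h2, Trim23 and Ppwd1). For Q153R over Ctrl, 4 of 38 genes within 10 Mb were higher and 4 lower, with a median log2 ratio of -0.05, against 6.80% higher among all other genes.

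The sorting receptor gene Sorcs1 was at 272, 194 and 67.2 CPM in KD, Q153R and Ctrl (KD over Ctrl 4.05, 2.69–6.27), and Edil3, an extracellular matrix gene, at 183, 119 and 44.8 CPM (4.08, 2.47–7.05, with 21.8% of the KD UMIs in 1 nucleus; Q153R over Ctrl 2.65, and 1.01 within the Avp-led cluster). Among the lower genes, the cadherin gene Cdh12 was at 136, 490 and 428 CPM in KD, Q153R and Ctrl (KD over Ctrl 0.32, 0.233–0.429), Adarb2, of the RNA-editing enzyme family, at 263, 705 and 690 CPM (0.38, 0.304–0.474), and Nnat at 129, 197 and 376 CPM (0.34, 0.248–0.467). In Ctrl, 1 nucleus held 20.9% of the Cdh12 UMIs and 1 held 21.4% of the Nnat UMIs. KD over Ctrl was also taken outside the Avp set, without the GABAergic-like and glial clusters. There it was 1.13 for Sorcs1, 0.999 for Edil3, 1.08 for Cdh12, 0.854 for Adarb2 and 0.805 for Nnat. Cdh12 and Adarb2 were low in KD alone over all Avp nuclei (Cdh12 in Q153R over Ctrl 1.15, and 0.646 among nuclei with Xist), while Nnat was also lower in Q153R than in Ctrl (0.52, 0.395–0.689). Nt5dc1, Galnt7, Slx4ip and Prkcb completed the 8 highest and Pdzd8, Tsn, Nr2f1, Zfp410 and Hadhb the 8 lowest, with ratios of 2.79 to 3.84 and 0.32 to 0.38; Galnt7 stood at 2.85, and at 1.85 within the Avp-led cluster.

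Between Q153R and Ctrl, which uses the same Ctrl nuclei, 250 of 3653 compared genes were over 1.5-fold higher (6.84%) and 289 lower (7.91%). Arsb (3.06, 1.62–6.12), Cfl2, an actin regulator (3.05, 1.72–5.68), Epha6 (3.03, 2.11–4.43) and Sorcs1 (2.89, 1.88–4.57) were higher, and so was the Y-linked gene Uty (3.10), which moves with the sex of the nuclei. Tenm2, an adhesion gene, was at 586 CPM in Q153R and 112 CPM in Ctrl (ratio 5.23), but at a ratio of 0.915 within the Avp-led cluster. Of the Tenm2 UMIs in Q153R, 22.4% lay in 1 nucleus. Sv2c was at 10.1 against 116 CPM, in step with the 1 and 7 Crh-cluster nuclei in these pools. Gpc5 was at 341 against 1111 CPM (0.31), and at a ratio of 1.01 when both Avp thresholds were doubled. Of the Gpc5 UMIs in Ctrl, 24.2% lay in 1 nucleus. Stpg2, Cntnap3, Mitf, Gas2, Mtx2 and Lmo3 were also among the 8 lowest, at 0.25 to 0.36, and Fam171a1 and Etl4 among the 8 highest, at 2.82 and 2.77. Etl4 stood at 1.67 (0.946–2.98) within the Avp-led cluster, and among nuclei with Xist Lmo3 stood at 0.58 (0.240–1.26), Stpg2 at 0.41 and Gas2 at 0.17.

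Listed gene groups were read against the background of 15.1% of compared genes past 1.5-fold for KD and 14.8% for Q153R. Of 19 compared granule genes none was past 1.5-fold between KD and Ctrl, and 3 of 18 were between Q153R and Ctrl, of which Scg2 stood at 1.01 within the Avp-led cluster. Of 13 compared secretory pathway genes 1 was lower in KD (Canx) and 1 in Q153R (Dnajc3). Of the PVH factors, Otp and Tshz2 were over 1.5-fold higher and Nr2f1 and Lmo3 over 1.5-fold lower in both KD and Q153R, against the same Ctrl nuclei, out of 20 and 21 compared; Pbx3, Zfhx3 and Sox5 were higher in Q153R as well, Zfhx3 at 0.959 within the Avp-led cluster. Calcr was over 1.5-fold lower in both (0.43 and 0.41), from 18, 16 and 44 UMIs in KD, Q153R and Ctrl, but within the Avp-led cluster the ratios were 8.003 (1.86–72.1) and 8.99 (2.09–81.0), and 65.9% of the Ctrl UMIs came from 1 nucleus.

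**Figure D5:**
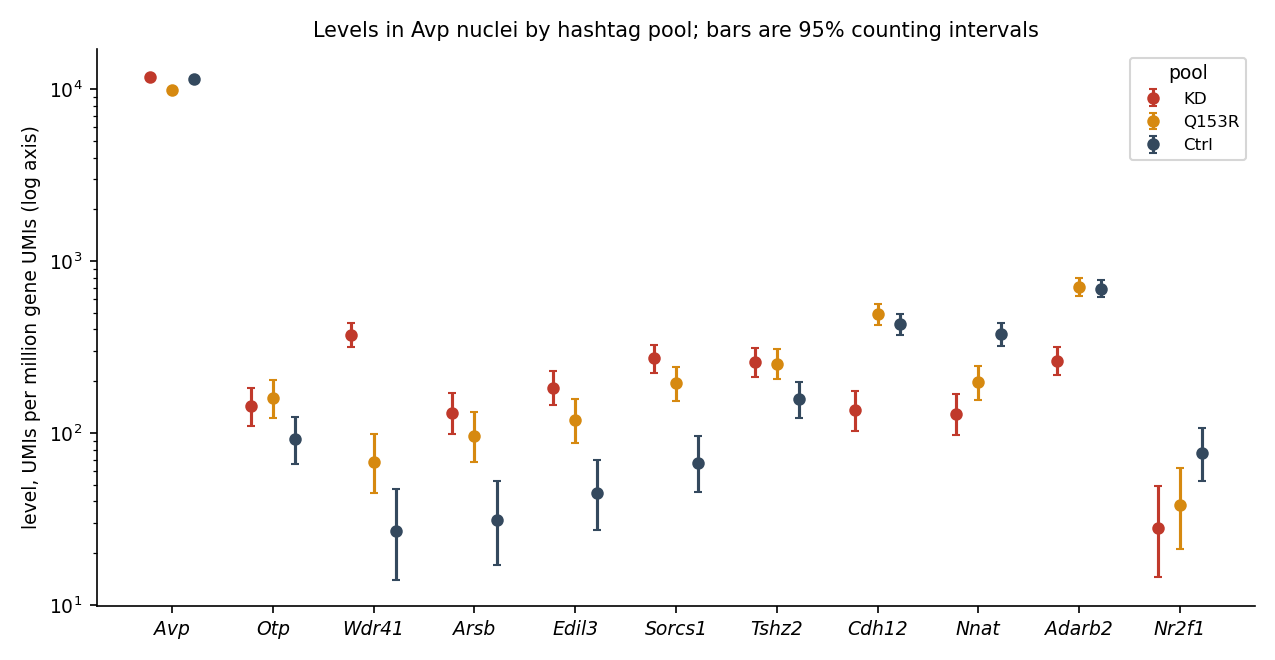
Levels of 11 genes in Avp nuclei by pool, in CPM on a log axis, with 95% counting intervals. Wdr41 is far higher in KD (373) than in Q153R (68.2) and Ctrl (26.9), Cdh12 and Adarb2 are low in KD alone, and Avp lies between 9845 and 11835 in all pools.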

How the data were processed

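The authors deposited raw UMI counts per gene and barcode from 1 droplet library, per the file headers, with 31053 gene rows and 3 hashtag rows; no unnamed rows or unused columns of per-sample values were present. Counts came from Cell Ranger 6.0.0 on mm10, per the submitters' processing notes, while the matrix header names 7.0.0; whether introns were counted, and how cells were called, was not found in the headers or notes. Free RNA in droplets adds counts to all levels. Of 6173 barcodes 6157 had at least 500 genes, and 4904 of these carried 1 tag by thresholds of 105 (Ctrl), 61 (KD) and 37 (Q153R) hashtag UMIs. The 1124 barcodes with more than 1 tag were left out, which removes doublets between pools but not within one; no doublet caller was run.

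Levels are CPM, the summed UMIs of a gene per 1000000 summed UMIs of all genes, with exact Poisson intervals; ratios have exact conditional binomial intervals and shares Clopper-Pearson intervals. A gene was compared where its summed count times the smaller group's library share reached 20, and called past 2-fold between nucleus groups or 1.5-fold between pools and tertiles; a group at 0 was set to 3 counts. Shares at equal depth are expected values after thinning to 2000 UMIs. Clusters used 2000 variable genes without Avp and Oxt, 30 principal components, 15 neighbours and the Leiden method (leidenalg 0.10.2) at resolution 1. Named genes were list members and, by a rule, the genes with the highest and lowest ratios (15 and 10 against all others, 10 and 10 against Oxt-rich nuclei, 8 and 8 between pools or tertiles) whose interval excluded 1 and of which no nucleus held over 25% of the UMIs. The Avp nuclei, the gene lists and this rule were chosen with earlier results of these data known. Gene positions came from GENCODE vM21, which held 30934 of the 31053 gene IDs, and promoters from RefSeq on GRCm38.p6. A few members and 1 gene that the naming rule picked are not reported here. The ratio code was tested on simulated data. Python 3.11.15, numpy 2.4.6 and scipy 1.17.1 were used.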

Additional observations from a re-analysis of the deposited data

How the results depend on the processing

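No paired analysis was possible because there is 1 library and the labels give no replicate numbers. The count of called genes depended on the count minimum. With 50 expected counts in place of 20, the genes past the fold were 502 in place of 881 against all other nuclei, 344 in place of 640 against Oxt-rich nuclei, 126 in place of 587 for KD over Ctrl and 107 in place of 539 for Q153R over Ctrl; with 10 they were 1099, 1458 and 1320 in the last 3 comparisons. Fewer or more genes were compared there. Among Xist nuclei alone Q153R over Ctrl gave 322, from 129 higher and 193 lower. Within the Avp-led cluster the tertiles of Avp level gave 244 higher and 236 lower genes, in place of 205 and 325. All other planned settings left these counts within 1.5 times. Of 761 gene ratios recomputed, 32 values reversed. Sox6 and Slc1a3 turned to 1.34 and 1.29 against all other nuclei without the GABAergic-like and glial clusters. Against Oxt-rich nuclei, Agtr1a turned to 0.675 with the stricter Avp threshold and to 0.205 in the Avp-led cluster, where Crh turned to 0.293 and Vgf to 0.652; against the Oxt-led cluster alone Sox5 turned to 1.43, Pde3a to 1.20, Pde7b to 1.74, Chrm3 to 1.54 and Reln to 4.62. For KD over Ctrl, in the Avp-led cluster, Agtr1a turned to 1.60 and Calcr to 8.003, and Calcr to 1.89 with the stricter threshold. For Q153R over Ctrl, the stricter threshold turned Gpc5 to 1.01, Scg2 to 1.02, Calcr to 2.04 and Homer1 to 1.12; the Avp-led cluster turned Tenm2 to 0.915, Scg2 to 1.01, Zfhx3 to 0.959, Trpm3 to 0.799, Calcr to 8.99 and Homer1 to 1.14; Xist nuclei turned Galnt7 to 0.941; Glra3 turned to 0.966 with means over nuclei and to 0.789 with the cap on UMIs. Between tertiles, the Avp-led cluster turned Pam to 1.14, Scg2 to 1.58, Rab3c to 1.10 and Calcr to 3.24. Htr2c went to 3.74 there only because its 0 UMIs in the high tertile were set to 3 counts. Without that floor its ratio was 0 (0–48.6). The other causes were not tested. The stricter rule, the Avp-led cluster and the cap at the 95th percentile of UMIs were among the settings; those using clusters were chosen after seeing the data. With 70 to 77 nuclei a pool, genes below about 20 expected UMIs could not be compared between pools.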
